A study of Rattus norvegicus with 4 samples.

Results

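Bile acids limit their own synthesis in the liver through a nuclear receptor loop. The 5 genes of this loop described here are Nr1h4, which encodes the bile acid receptor FXR, Nr0b2, which encodes the corepressor-like receptor SHP, and the sterol hydroxylases Cyp7a1, Cyp8b1 and Cyp27a1. They were chosen by name: every probe whose platform annotation gave exactly 1 gene symbol, and that symbol one of the 5, was taken. This gave 9 probes of the 1432 with 1 symbol, and 5 of the 958 genes these represent. Nr0b2, Cyp7a1, Cyp8b1 and Cyp27a1 had 2 probes each and Nr1h4 had 1.

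The study compared liver RNA of male Sprague-Dawley rats of 250 to 300 g whose common bile duct had been tied 1 h earlier, a procedure that blocks the flow of bile to the gut, with that of rats given a sham operation, in which the duct was exposed and not tied. Both groups were operated under ether, and RNA of the right lateral lobe of 3 rats per group was pooled. The pools were compared on 4 two-colour cDNA arrays, with the ligated sample in Cy5 and sham in Cy3 on arrays 1 and 3 and the dyes exchanged on arrays 2 and 4. The array was the replicate. Whether arrays used the same RNA extracts is not in the labels. All p-values therefore describe how much arrays differ when hybridised with pooled RNA, and say nothing of rat-to-rat spread. In limma on centred values that difference between arrays is taken largely from all probes in common, not from each probe alone.

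Each value is a log ratio of the 2 channels, of which neither the base nor the direction was given in the sources used here. It was read as ligated over sham. This direction is likely, since in the labels channel 1 is sham and channel 2 ligated throughout, but it is not stated, and in the opposite reading every sign below turns. Whether the authors corrected the values for the dye is not given, and the array medians differed by dye orientation, as they were -0.88 and -0.73 on arrays 1 and 3 and 0.75 and 0.87 on arrays 2 and 4. An operation estimate is the mean over the 4 arrays, in which the dye cancels, and a dye contrast is the Cy5 over Cy3 part that remains when arrays 1 and 3 are set against arrays 2 and 4. The values are ratios and hold no level, so the identity of the tissue could not be checked from markers.

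When bile acids accumulate in hepatocytes they bind FXR, which pairs with a retinoid X receptor and activates Nr0b2. SHP has a ligand-binding domain without a DNA-binding domain and acts by binding other receptors, above all LRH-1 (Nr5a2) and HNF4α, on the promoters of Cyp7a1 and Cyp8b1. Cyp7a1 starts the classic route of bile acid synthesis and sets its rate, Cyp8b1 adds the 12α-hydroxyl group of cholic acid, and mitochondrial Cyp27a1 oxidises the sterol side chain and starts the alternative route. AP-1 and the kinases upstream of it also act on Cyp7a1 and Nr0b2.

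Of the 5 genes, those with the highest and the lowest probe estimate were Nr0b2 and Cyp8b1, and their promoters are shown because SHP and LRH-1 are known to meet at such sequences. They are the 250 bases before the annotated start from RefSeq's table for GRCr8, on the strand of the gene, at chr5:151062910-151063159 (plus strand) for Nr0b2 and chr8:130457593-130457842 (minus strand) for Cyp8b1. Capitals mark matches to CAAGGNCA, an element bound by LRH-1 and its NR5A relatives, and to the TATA box hexamer TATAAA.
Nr0b2: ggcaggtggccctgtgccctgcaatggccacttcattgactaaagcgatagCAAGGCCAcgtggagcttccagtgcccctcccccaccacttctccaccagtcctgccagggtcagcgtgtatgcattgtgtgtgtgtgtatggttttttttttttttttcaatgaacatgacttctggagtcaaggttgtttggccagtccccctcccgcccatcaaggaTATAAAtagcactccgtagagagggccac
Cyp8b1: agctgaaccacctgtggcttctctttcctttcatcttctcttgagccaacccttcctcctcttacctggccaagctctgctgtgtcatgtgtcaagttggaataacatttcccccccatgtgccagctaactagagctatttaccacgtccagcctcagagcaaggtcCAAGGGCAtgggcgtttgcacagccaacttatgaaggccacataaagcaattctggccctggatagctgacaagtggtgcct
CAAGGNCA, searched on both strands, was found once in each window, as CAAGGCCA from 199 to 192 bases before the start of Nr0b2 and as CAAGGGCA from 82 to 75 bases before the start of Cyp8b1. The window of Cyp27a1 also held 1 match, on the opposite strand. Of 33469 promoter windows of this length in the table, 5.58% held the motif. TATAAA was found in the window of Nr0b2, from 29 to 24 bases before the start, and in 12.9% of all windows. The nuclear receptor core motif AGGTCA, which overlaps CAAGGNCA when N is T, was not in the windows of Nr0b2 or Cyp8b1, was found on both strands of that of Cyp27a1, and in 14.1% of all windows. Promoters of these 3 of the 5 genes were in the promoter table used.

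Nr0b2 rose more after ligation than any other gene on the array. Probe 1795 had deposited log ratios of 1.25, 1.03, 1.19 and 1.27 on arrays 1 to 4. Probe 1544 had 1.12, 1.02, 1.27 and 0.94. All 8 values lay above 0 in both dye orientations, and the lowest of the 4 values ranked 1 and 2 of 1936 probes for probes 1795 and 1544. The operation estimates were 1.18 ± 0.084 and 1.08 ± 0.084 (limma SE, adjusted p of 8.11e-20 and 3.82e-18 in limma). This SE rests largely on the spread common to all probes and not on that of these probes alone. The estimates had ranks 1 and 2 of all probes, before 0.77 for the next, which has no gene name. The log base sets what this means as a fold: 1.18 is 2.27-fold in base 2, 3.25-fold in base e and 15.1-fold in base 10. Nr0b2 also passed on the values as deposited (1.18 ± 0.059 and 1.09 ± 0.053, limma adjusted p = 0.0116 for both). Any array with the ligated sample in Cy5 paired with any of the others gave 1.11 to 1.26 for probe 1795 and 1.03 to 1.15 for probe 1544. Over 4 arrays the smallest two-sided p of an exact sign-flip permutation test is 0.125, which both probes reached.

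**Figure D1:**
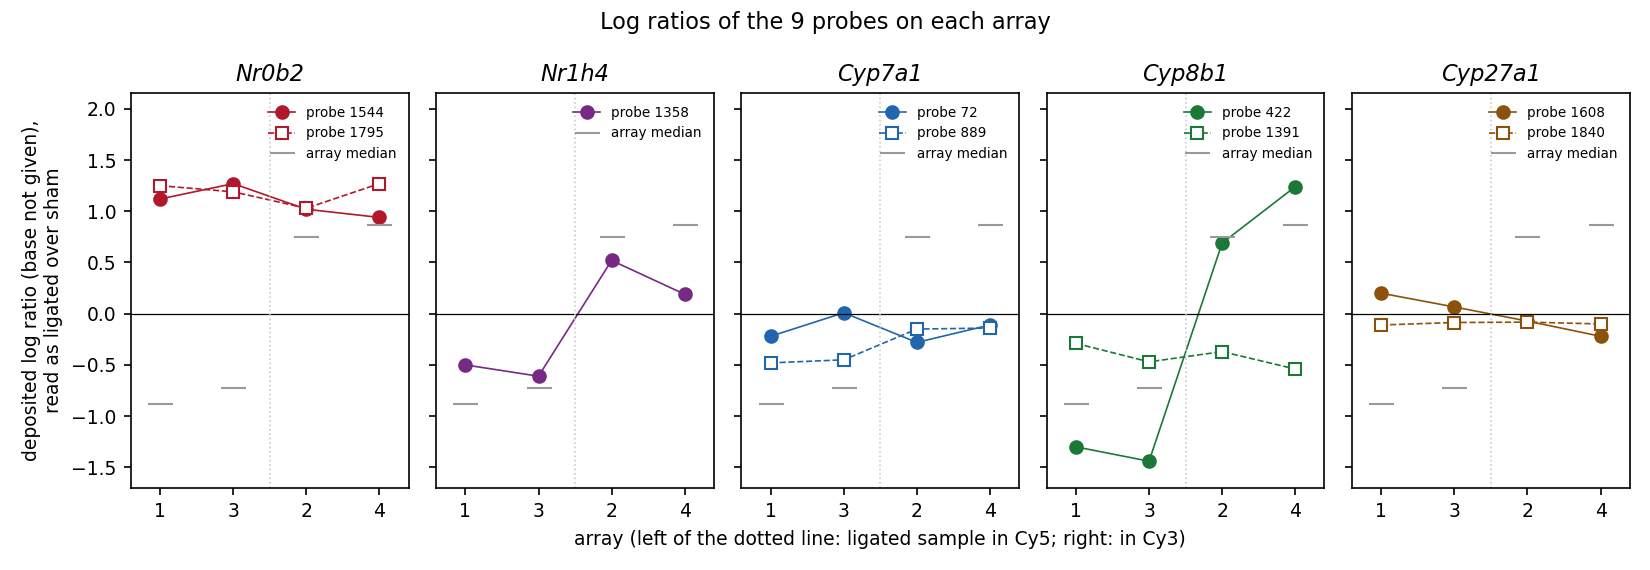
Deposited log ratio (vertical axis, base not given, read as ligated over sham) of each probe on arrays 1 and 3, where the ligated sample carried Cy5, and on arrays 2 and 4, where it carried Cy3. Points joined by lines are probes and grey dashes are array medians. Both Nr0b2 probes lie between 0.94 and 1.27 throughout, while Cyp8b1 probe 422 and Nr1h4 cross 0 with the dye as the array medians do.

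Among all probes, 5.73% passed, 0.93% as higher and 4.8% as lower after ligation (limma on centred values, adjusted p under 0.05). Of the 9 probes 2 rose, both of Nr0b2, and 2 fell, 1 each of Cyp8b1 and Cyp7a1, while 5 did not pass. As deposited, 0.981% of all probes were above 0 on 4 of 4 arrays and 5.94% below; here 2 probes were above and 3 below. On centred values 1.5% of all probes were above 0 on 4 of 4 arrays and 0.413% below, and of the 9 probes 2 were above and 0 below. On deposited values 0.155% of all probes passed in limma, all as higher, and of the 9 only the 2 Nr0b2 probes did.

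Cyp8b1 probe 1391 had deposited log ratios of -0.29, -0.37, -0.47 and -0.54 on arrays 1 to 4. All 4 lay below 0, with a mean of -0.38 where the ligated sample carried Cy5 and of -0.45 where it carried Cy3. Only 3 probes of 1936 had a lower highest value over the 4 arrays. Its operation estimate was -0.42 ± 0.085 (limma adjusted p = 0.000416), with a 95% interval of -0.59 to -0.25. This ranked 16 of 1936 from the lowest, and 4 of 1694 outside probe blocks 3 and 4, which hold most lower calls. The call ended on values as deposited (-0.42 ± 0.061, adjusted p = 0.150, unadjusted p = 0.00139) and without array 3 (-0.34 ± 0.14, adjusted p = 0.846), with little change of the estimate in either. After block-wise dye correction, in which a curve on the dye contrast was removed within each of 16 blocks of probes, it passed (-0.38 ± 0.039, limma adjusted p = 0.000133). In that fit 6.97% of all probes passed, and of the 9 probes 2 rose and 3 fell. The curve also removes any shift that the probes of a block share on an array. Estimates and calls after this correction are therefore relative to probes of the same block.

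The second Cyp8b1 probe, 422, behaved differently on the arrays. Its deposited log ratios were -1.30, 0.69, -1.44 and 1.24, low on arrays 1 and 3 and high on arrays 2 and 4. Its dye contrast was -1.17, against 0.038 for probe 1391 and a median of -0.81 over all probes. Differences this large in dye contrast between probes of a gene were uncommon: 7.37% of 678 pairs of probes of the same gene with different GenBank entries were further apart than the 1.21 seen here. The operation estimate of probe 422 was -0.21 ± 0.086 (limma adjusted p = 0.181), with a 95% interval of -0.38 to -0.036. It depended on single arrays, from -0.32 without array 4 to -0.10 without array 2. The probe lies in block 4, and after block-wise dye correction it had -0.063 ± 0.036 (adjusted p = 0.363). Set against each other per array, probe 1391 minus probe 422 was -0.21 ± 1.42 (SD, n = 4; exact two-sided sign-flip permutation p = 0.75, 0.75 adjusted over 4 such pairs), near 1 on arrays 1 and 3 and below -1 on arrays 2 and 4. After block-wise dye correction the same difference was -0.31 ± 0.081 (SD).

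Cyp7a1 probe 889 had deposited log ratios of -0.48, -0.15, -0.45 and -0.14. All were below 0, and the 2 arrays with the ligated sample in Cy5 were lower than the other 2. Every pairing of arrays of opposite dye gave between -0.31 and -0.29. The operation estimate was -0.31 ± 0.084 (limma adjusted p = 0.0128; 95% interval -0.47 to -0.14), rank 70 of 1936 from the lowest, and 15 of 1694 outside blocks 3 and 4. As a fold, this is 1.24 in base 2 and 2.03 in base 10. Without array 1 it was -0.34 ± 0.14 and without array 3 it was -0.28 ± 0.14, and neither passed. Without array 2 it was -0.34 ± 0.086 and without array 4 it was -0.28 ± 0.086, and both passed. In each of these fits the SE is shared by all probes. On values as deposited probe 889 did not pass (-0.30 ± 0.045, limma adjusted p = 0.151).

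Cyp7a1 probe 72 carries the same GenBank entry as probe 889. It had -0.22, -0.28, 0.0093 and -0.11, so 3 of 4 values were below 0 and array 3 was not. Its operation estimate was -0.15 ± 0.084 (limma adjusted p = 0.416; 95% interval -0.32 to 0.011), and after block-wise dye correction it passed, at -0.21 ± 0.041 (adjusted p = 0.0103). Probe 889 then had -0.27 ± 0.035 (adjusted p = 0.000671). On deposited values probe 889 minus probe 72 was -0.26, 0.14, -0.46 and -0.029 on arrays 1 to 4, a mean of -0.15 ± 0.26 (SD; exact two-sided sign-flip permutation p = 0.375, 0.5 adjusted over the 4 pairs). The 21 pairs of probes on the array that share a GenBank entry had a median difference of 0.058 between their operation estimates, and 3 of them differed by more than the Cyp7a1 pair. With both probes averaged, Cyp7a1 did not pass (-0.23 ± 0.072, limma adjusted p = 0.0849), whereas Cyp8b1 (-0.31 ± 0.076, adjusted p = 0.0236) and Nr0b2 (1.13 ± 0.073, adjusted p = 5.31e-10) did; of all 958 genes 4.18% passed in that fit, 1.25% as higher and 2.92% as lower.

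Cyp27a1, the enzyme of the alternative route, passed at neither probe. Probe 1840 had deposited log ratios of -0.11, -0.082, -0.086 and -0.10. All 4 were below 0 and close together, with an SD of 0.013 that ranked 4 of 1936 from the lowest (median over probes 0.96). Probe 1608 had 0.20, -0.072, 0.066 and -0.22, above 0 on arrays 1 and 3 and below on arrays 2 and 4. The operation estimates were -0.10 ± 0.084 and -0.012 ± 0.085 (limma adjusted p = 0.783 and 0.991), with 95% intervals of -0.27 to 0.067 and of -0.18 to 0.16. After block-wise dye correction they were 0.013 and 0.020.

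Nr1h4, the receptor itself, had -0.50, 0.52, -0.61 and 0.19 at its single probe, 1358. The values were low on arrays 1 and 3 and high on arrays 2 and 4, with a dye contrast of -0.46. The operation estimate was -0.11 ± 0.086 (limma adjusted p = 0.770; 95% interval -0.28 to 0.065). It ranged from -0.22 without array 2 to 0.0042 without array 4. After block-wise dye correction it was -0.13 ± 0.039 (adjusted p = 0.0768).

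**Figure D2:**
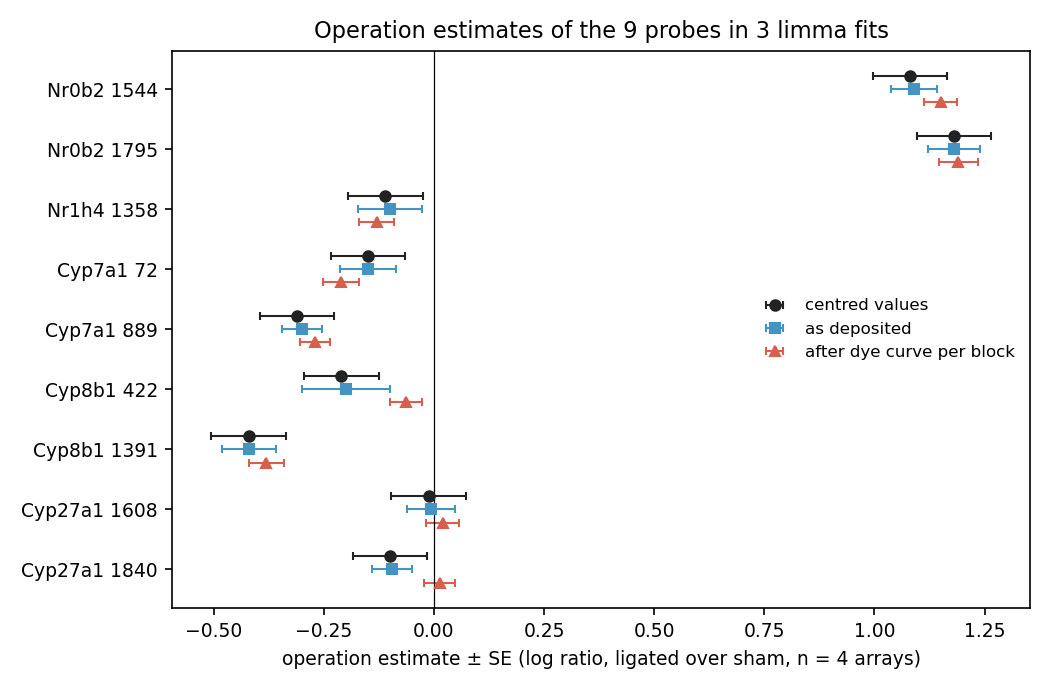
Operation estimate with its SE (horizontal axis, log ratio, ligated over sham, n = 4 arrays) of each probe from limma on centred values, on values as deposited and after block-wise dye correction. The Nr0b2 probes lie between 1.08 and 1.19 in all 3 fits, and Cyp8b1 probe 422 moves from -0.21 to -0.063.

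Within each array Nr0b2, as the mean of its probes, stood above each of the other 4 genes. Nr0b2 minus Cyp27a1 was 1.14, 1.11, 1.24 and 1.27 on arrays 1 to 4, and Nr0b2 minus Cyp7a1 was 1.53, 1.24, 1.45 and 1.23. The means were 1.19 ± 0.077 and 1.36 ± 0.15 (SD, n = 4). Nr0b2 minus Cyp8b1 was 1.45 ± 0.74 and Nr0b2 minus Nr1h4 was 1.24 ± 0.63, with the larger values on arrays 1 and 3. Each of these 4 differences reached the smallest p that the exact two-sided sign-flip permutation test over 4 arrays can give (0.125, and 0.312 adjusted over 10 pairs of genes). The 6 differences among Nr1h4 and the 3 hydroxylases had means of -0.26 to 0.21. With the dye left in the values, none had the same sign on all 4 arrays (exact permutation p from 0.25 to 0.875). After block-wise dye correction all but Cyp7a1 minus Cyp8b1 (-0.019 ± 0.029, SD, exact permutation p = 0.375) reached an unadjusted exact permutation p of 0.125. Among them, Cyp7a1 minus Cyp27a1 was then -0.26 ± 0.027, Cyp8b1 minus Cyp27a1 -0.24 ± 0.036 and Nr1h4 minus Cyp8b1 0.092 ± 0.05 (SD).

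Of the 9 probes, all but that of Nr1h4 and Cyp8b1 probe 422, 7 in number, had a dye contrast within 0.2 of 0, as had 454 of all 1936 probes (23.5%). The operation estimates of those 454 probes had a median of -0.074, against -0.020 over all probes, and 8.59% of them passed as lower and 1.54% as higher. Among them Nr0b2 held the 2 highest ranks, Cyp8b1 probe 1391 ranked 5 from the lowest and Cyp7a1 probe 889 ranked 25. Spot intensities were not used here, and the part of the dye contrast in these ranks was not tested.

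**Figure D3:**
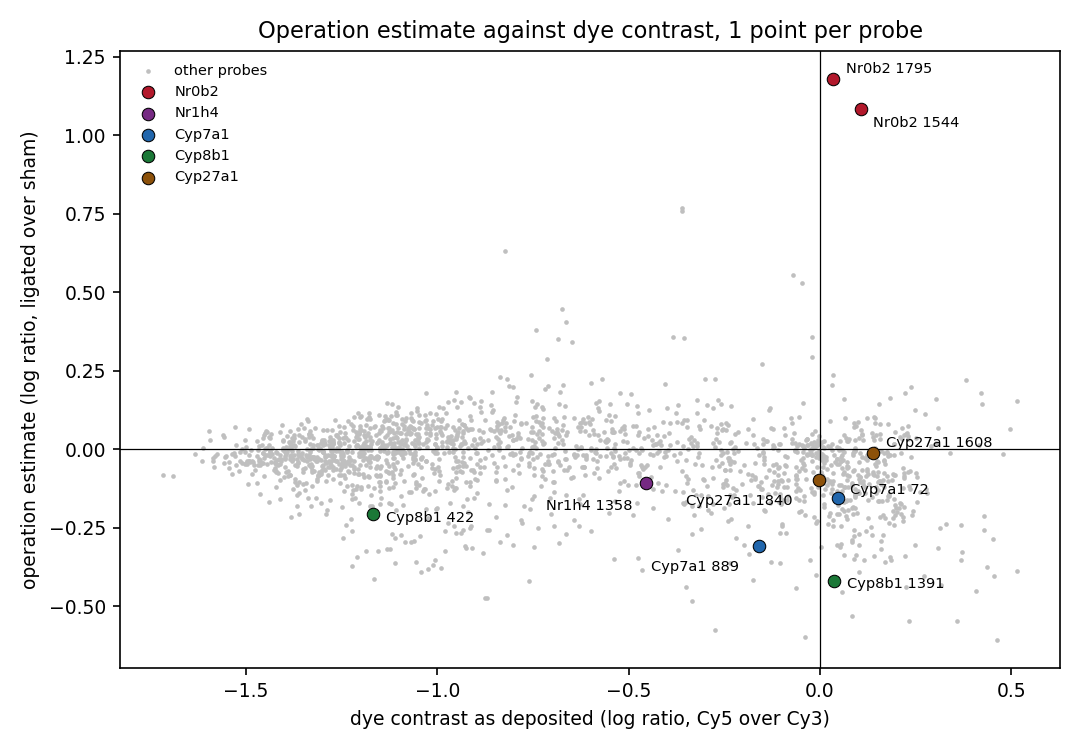
Operation estimate (vertical axis, log ratio, ligated over sham) against dye contrast as deposited (horizontal axis, log ratio, Cy5 over Cy3), with 1 point for each of 1936 probes. The Nr0b2 probes stand alone at 1.18 and 1.08 near a dye contrast of 0, and Cyp8b1 probes 1391 and 422 lie apart at dye contrasts of 0.038 and -1.17.

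No other probe had values close to those of Nr0b2. The nearest by Euclidean distance over the 4 arrays were the unnamed probes 1220 and 1510 and Gsta2, an alpha class glutathione transferase, at distances of 1.13, 1.16 and 1.20 (median over probes 2.96). Gsta2 had 0.47, 0.50, 0.51 and 0.76 and rose by 0.55 ± 0.084 (limma adjusted p = 9.69e-07). For the other genes close neighbours were found, none of which passed. Nearest to Cyp7a1 was Cib1 (distance 0.14; -0.23 ± 0.084, adjusted p = 0.0917), followed by the unnamed probes 190 and 1830. Cyp8b1, averaged over its unlike probes, was nearest to Slc31a1, a copper transporter, to probe 1279 of Pfkfb1, a regulator of glycolysis, and to Tlr3, a receptor for double-stranded RNA (0.34 to 0.36). Cyp27a1 was nearest to unnamed probe 1664, to Echs1, the mitochondrial enoyl-CoA hydratase, and to Casp2, a caspase (0.052 to 0.077). Nr1h4 was nearest to unnamed probe 1887, to Slc46a1, a folate transporter, and to Capn3, a calpain (0.13 to 0.19).

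Around these genes, 124 others of the pathway were listed, of which 32 were measured, by 50 probes. On centred values 2 of the 50 rose and 6 fell, against 0.93% and 4.8% of all probes. All 6 that fell are among the 14 of the 50 that lie in probe blocks 3 and 4. These blocks hold 242 probes and 71 of the 93 lower calls of the array. After block-wise dye correction, in which 3.51% of all probes passed as higher and 3.46% as lower, 6 rose and 2 fell. The median estimate of the 50 probes was -0.042 on centred values, against -0.020 over all probes.

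Of the receptors and transcription factors that act on Nr0b2, Cyp7a1 or Cyp8b1, 8 of 38 genes were measured, by 11 probes, and 1 probe rose. This was probe 582 of Rxrg, a retinoid X receptor, at 0.049, 0.44, 0.20 and 0.42, above 0 on all arrays (0.27 ± 0.084, limma adjusted p = 0.0337; 0.28 ± 0.040 after block-wise dye correction, adjusted p = 0.00148). The other Rxrg probe, 1540, had -0.12, 0.064, -0.085 and -0.11 and an estimate of -0.067 ± 0.084 (adjusted p = 0.935). Rxra, the main retinoid X receptor of liver, had -0.092 and -0.068 at its probes (adjusted p = 0.842 and 0.932). The lowest of the list was Thra, a thyroid hormone receptor, in block 3, at -0.24 ± 0.089 (adjusted p = 0.103; 0.0030 after block-wise dye correction).

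Of 18 other genes known as FXR targets 5 were measured, by 7 probes, and all 7 estimates lay below 0, from -0.39 to -0.013, as did 60.3% of all probes and 76.0% of those with a dye contrast within 0.2 of 0. Of the 7, 5 lay below 0 after block-wise dye correction, with a median of -0.023. The 2 that passed were in blocks 3 and 4. Fgg, the fibrinogen gamma chain, fell by 0.39 ± 0.093 at probe 287 (limma adjusted p = 0.00361), and the complement component C3 fell by 0.27 ± 0.086 at probe 432 (adjusted p = 0.0405). Deposited log ratios were 0.18, -1.45, 0.086 and -0.34 for Fgg and -0.11, -0.63, -0.22 and -0.11 for C3, both lowest on array 2. Neither passed after block-wise dye correction (-0.023 and -0.10), and their other probes had -0.12 each (adjusted p = 0.621 and 0.677). The highest was Apoe, apolipoprotein E, at -0.013 ± 0.085.

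Of 7 other genes known to be repressed by SHP 2 were measured, and none passed. Pck1, which makes phosphoenolpyruvate in gluconeogenesis, had 0.042 ± 0.084, and Slc10a1, the importer of bile salts, had -0.22 ± 0.086 and -0.16 ± 0.084 (limma adjusted p = 0.991, 0.133 and 0.369). Of 20 transporters of bile salts and sterols 4 were measured, by 6 probes, and none passed on centred values, between -0.22 for Slc10a1 and 0.21 for the exporter Abcc4. After block-wise dye correction 2 block 4 probes rose: the canalicular exporter Abcc2 by 0.19 ± 0.037 and the organic anion importer Slco1a4 by 0.14 ± 0.035 (adjusted p = 0.0102 and 0.0302). Their estimates on centred values were 0.045 and -0.024, and the other Slco1a4 probe, 1152, had -0.044 after the correction (adjusted p = 0.570). Of 20 other genes of bile acid synthesis and conjugation only Por, the reductase that passes electrons to microsomal cytochromes P450, was measured, and its 5 probes had -0.11 to 0.058 with none past the threshold.

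Of 23 kinase, AP-1 and cytokine genes that signal to Cyp7a1, 13 were measured, by 20 probes, of which 1 rose and 4 fell, against 0.93% and 4.8% of all probes. Fos, a subunit of AP-1, had deposited log ratios of -0.55, 1.15, -0.16 and 1.10 and rose by 0.38 ± 0.084 (limma adjusted p = 0.00139; 0.30 ± 0.041 after block-wise dye correction, adjusted p = 0.000975). The 4 that fell lie in blocks 3 and 4, where 71 of 242 probes fell. Mapk14, the stress kinase p38α, fell by 0.60 ± 0.090 and, after block-wise dye correction, by 0.30 ± 0.063 (adjusted p = 9.69e-07 and 0.0138). Probe 369 of Prkcz, an atypical protein kinase C, fell by 0.37 ± 0.089 and then by 0.24 ± 0.060 (adjusted p = 0.00361 and 0.0330), while its other 2 probes had -0.014 and 0.022. Dusp1, a phosphatase of MAP kinases, and Egfr, the EGF receptor, fell by 0.43 and 0.31 at their block 3 probes. Both were lowest on array 2, with deposited log ratios of -0.044, -1.35, -0.18 and -0.14 for Dusp1 and -0.33, -0.91, -0.17 and 0.19 for Egfr. After block-wise dye correction these probes had -0.093 and -0.0052. The other probes, 1209 of Dusp1 and 1270 of Egfr, had 0.13 ± 0.085 and -0.12 ± 0.085 on centred values (limma adjusted p = 0.577 and 0.671). Egr1, an early zinc finger factor, and probe 651 of Fosl2, a Fos relative, passed only after block-wise dye correction (limma adjusted p = 2.62e-05 and 0.0232). Egr1, in block 3, had deposited log ratios of -0.42, 0.30, -0.51 and 1.46. Its estimate was 0.20 ± 0.094 on centred values (limma adjusted p = 0.269) and 0.45 ± 0.038 after the correction. Fosl2 probe 651 had 0.16 in both fits, with an SE of 0.084 and then of 0.035. The other Fosl2 probe, 1744, had 0.036 and 0.013. The kinases that phosphorylate Jun, Mapk8 and Mapk9, had -0.021 to 0.0086.

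**Figure D4:**
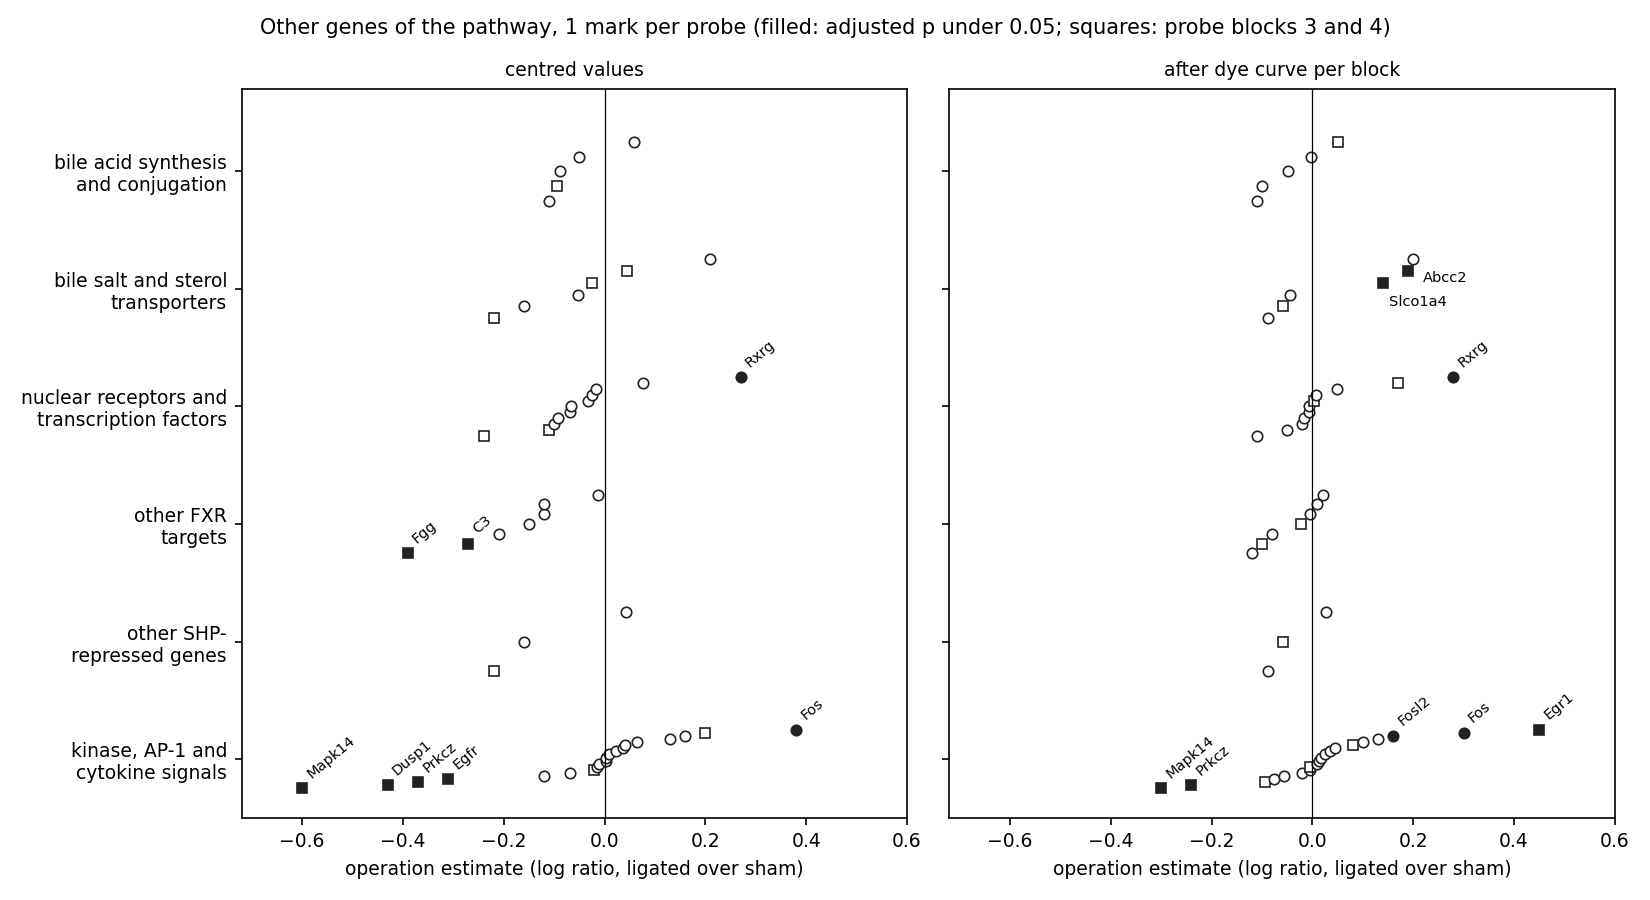
Operation estimate (horizontal axis, log ratio, ligated over sham) of the other pathway genes by list, on centred values and after block-wise dye correction, 1 mark per probe, Slc10a1 in 2 lists. Filled marks passed an adjusted p of 0.05 and squares lie in probe blocks 3 and 4; on centred values all 6 filled marks below 0 are squares.

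Markers of the cell types that liver RNA can hold were read for a shift between ligated and sham; since fewer cells of a type and less RNA per cell cannot be told apart in such pools, they describe RNA only. Of 10 hepatocyte markers 5 were measured, by 6 probes, with estimates of -0.24 to -0.042 and none past the threshold; after block-wise dye correction Ttr, the thyroxine carrier, fell by 0.17 (limma adjusted p = 0.0265). Of 11 cholangiocyte markers 3 were measured, by 4 probes, at 0.047 to 0.10, and of 8 endothelial and 6 neutrophil markers 5 and 1 were, at -0.21 to 0.020 and 0.021 to 0.15, with none past the threshold. Probe 797 of Aqp1, a water channel, rose by 0.19 after block-wise dye correction (adjusted p = 0.0147), and its other probe had 0.065. Of 12 stellate cell and fibroblast markers 5 were measured, by 7 probes from -0.55 to 0.35. Of these 2 rose (Ccn2 and a Col1a1 probe) and 2 fell (both of Fn1), against 0.93% and 4.8% of all probes. The same probes passed after block-wise dye correction. Fn1 probe 298 lies in block 3 and its probe 1517 does not. Probe 298 had deposited log ratios of -0.29, -1.33, -0.33 and -0.22, lowest on array 2, and probe 1517 had -0.23, -0.43, -0.24 and -0.42. The other Col1a1 probe, 1183, had 0.10 (limma adjusted p = 0.812). Of 5 blood markers only Pf4 was measured, with a block 3 probe that fell by 0.30 and had -0.050 after block-wise dye correction (adjusted p = 0.480), and another at 0.14. None of the 7 macrophage and 6 lymphoid markers listed was measured. Lck, a kinase of T cells outside the list and named after its values were seen, fell by 0.48 at its block 3 probe and by 0.21 after block-wise dye correction (limma adjusted p = 0.000188 and 0.00427). The other leukocyte genes outside the list that are named here, picked in the same way and not a full set, did not pass after block-wise dye correction. Il2rg, Il2rb and Cd53 had -0.0042, -0.13 and 0.069 on centred values and passed in neither fit. Fcmr, in block 3, fell by 0.33 (limma adjusted p = 0.0301) and had -0.067 after block-wise dye correction (0.734). The part of such markers in the values of the 5 genes was not tested.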

How the data were processed

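The 4 columns of the deposited table hold 1 log ratio of the 2 channels per probe, for 1936 probes with 0 missing values. What the authors did to make these values, including scanner, background correction, normalization, log base and the order of the ratio, is not given in the sources used here. Arrays of the same dye orientation correlated at r = 0.86 and 0.94 across probes and those of opposite orientation at -0.93 to -0.77. The number of arrays limits the precision.

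Symbols are those of the platform annotation, brought up to date through gene IDs in RefSeq's GRCr8 table, which held 1429 of the 1432 probes with a single symbol; 19 probes had several symbols and 485 none. Each array was centred on its median, and limma 3.58.1 in R 4.3.3 (lmFit, eBayes) was fitted per probe over all 4 arrays with terms for operation and dye, with Benjamini-Hochberg adjustment over all probes and a threshold of 0.05. The fit has 2 residual degrees of freedom, to which the prior added 76.2 on centred values and 2.60 on deposited values. The SE of a centred probe is therefore set largely by the common spread of the array. The block-wise dye correction (dye curve per block) is a lowess (span 0.667) of each centred array on the dye contrast, subtracted within each of 16 runs of 121 consecutive probe numbers. It removes the level of the block as well as the dye curve, so its operation estimates are relative to the block. The fits were tested on simulated data with independent noise, in which no block of probes shared an operation shift. That test therefore does not show how the fits handle such shifts.

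The 5 genes, the lists, the rule for named genes and the alternatives were chosen with earlier results of these data known. The rule names every probe of the 5 genes. It also names pathway probes past the threshold in either of 2 fits, the highest and lowest probe of each list, and the 3 nearest probes per gene. Other settings tried were no centring, equal scaling, no dye term, the reading as Cy5 over Cy3, a robust prior, quantile normalization within dye orientation, averaged probes, only single-symbol probes, a dye curve per array or per block, an exact sign-flip test and leaving out each array.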

Additional observations from a re-analysis of the deposited data

Results flagged for a closer look

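Over 32 sets of 4 values checked for an array far from the others, 1 stood out, and chance gives about 1 in 20. Nr1h4 minus Cyp8b1 was 0.29, 0.36 and 0.35 on arrays 1 to 3 and -0.16 on array 4, a gap of 0.87 of the whole range. The Cyp8b1 mean behind it joins 2 probes of unlike dye contrast, and its highest value was on array 4 at probe 422.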

How the results depend on the processing

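Under the 14 alternatives that estimate the operation both Nr0b2 probes passed in 12, with estimates from 1.03 to 1.25 over all 14. They did not pass without a dye term (1.08 and 1.18) or in the exact sign-flip test, whose smallest p over 4 arrays is 0.125. Cyp8b1 probe 1391 lost its call without centring (-0.42), without a dye term (-0.42), with quantile normalization (-0.53), with a dye curve per array (-0.35) and in the exact test (-0.42); leaving out 1 array gave -0.50 to -0.34. Cyp7a1 probe 889 lost its call without centring (-0.30), without a dye term (-0.31), with quantile normalization (-0.31), with a dye curve per array (-0.26), with probes averaged (-0.23) and in the exact test (-0.31); leaving out 1 array gave -0.34 to -0.28. Limma's prior added 2.60 degrees of freedom without centring, 4.36 with quantile normalization, 2.92 with a dye curve per array and 76.2 in the fit reported. In the fits without 1 array the prior was infinite, so all probes share an SE. Cyp7a1 probe 72 passed after the dye curve per block (-0.21), and Cyp8b1 probe 422 passed in the Cy5 over Cy3 reading (-0.36). The mean of Cyp8b1 probes 422 and 1391 passed (-0.31), which is a call of the gene and not of probe 422; leaving out 1 array gave -0.32 to -0.10 for probe 422. In the Cy5 over Cy3 reading of centred values the sign turned for Nr1h4 (0.35), Cyp7a1 (0.85 and 0.65), Cyp8b1 probe 1391 (0.84) and Cyp27a1 (0.95 and 0.80). That reading tests the dye contrast relative to the array median, and 1599 probes pass in it.

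The count of 111 probes past the threshold was 3 without centring, 62 with equal scaling, 0 without a dye term (limma), 67 with a robust prior, 13 with quantile normalization, 7 with a dye curve per array, 40 genes with probes averaged, and 12 to 241 without 1 array. Without a dye term 5 probes had an unadjusted p under 0.05. The 14 differences between probes or genes moved by less than their SD in every alternative run. No paired analysis was possible because the 4 arrays form 1 group.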
